A study of Mus musculus with 17 samples.

Results

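The genes described here are 35 imprinted genes, transcribed wholly or mainly from the allele of a single parent, taken by name from a list of mouse imprinted genes and read in every embryo, out of 41709 gene symbols measured. All 35 symbols were found. RNA was sequenced from 17 single whole C57BL/6J embryos, each a separate animal whose litter is not labelled. The first experiment held 4 embryos with a CS and an INDEL allele of Disp1 (Disp1_CS_INDEL, from Disp1CS/+ mothers and Disp1INDEL/+ fathers) and 4 wild-type embryos (Disp1_WT), all at E9.5. The second held 5 embryos with the m1J allele on both copies of Myo10 (Myo10_m1J, from heterozygous mothers and fathers) and 4 wild-type embryos (Myo10_WT), all at E8.5. Disp1 encodes Dispatched, which releases Hedgehog ligands from the cells that make them, and Myo10 encodes myosin X, a motor of filopodia. Values are TPM, a transcript abundance scaled by transcript length and to a common total in each library, so levels of different genes can be set side by side.

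Imprinted genes carry DNA methylation laid down in the egg or the sperm, and in each imprinted domain this mark decides which parental copy is read. Many of the genes act on growth of the embryo and the placenta: as a rule, paternally expressed genes such as Igf2 favour growth and maternally expressed genes such as Igf2r, Cdkn1c and Phlda2 restrain it. Several domains pair a protein-coding gene with a long noncoding RNA read from the other parental copy, as Igf2 with H19, Igf2r with Airn, and Dlk1 with Meg3. Because the embryos come from an inbred strain, total transcript of a gene is reported and the parental copies were not separated.

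The libraries of the ages differed in content. Structural RNA genes (7SL, RNase MRP, RNase P and 7SK copies, but not Rn7sk) took 0.00524 to 0.0132% of TPM at E9.5 and 29.7 to 44.5% at E8.5. Replication-dependent histone genes took 0.0468 to 0.0539% and 6.79 to 8.66%. The 35 imprinted genes together held 8878 to 10551 TPM in the E9.5 embryos and 3707 to 6456 TPM in the E8.5 embryos. Every comparison of E9.5 with E8.5 therefore mixes age, experiment and library content, which cannot be told apart, and the calls were made under 4 scalings of the same values: TPM as deposited, median-of-ratios scaling, TPM with haemoglobin, mitochondrial and structural RNA genes left out, and TPM over protein-coding genes and the 35 genes alone. The labels name a single poly(A)-selecting kit for both ages and do not account for this difference in content. A scaling acts on all genes of a library alike, so it cannot remove a difference in which transcripts were captured. Whether capture differed between the ages was not tested. Fold changes are differences of log2(TPM + 1), a scale that understates changes of genes near or below 1 TPM. Embryo markers such as Sox2, Otx2 and Myl7 were present in every library, with 9 of 9 listed at 1 TPM or more in the E9.5 embryos and 8 or 9 of 9 in the E8.5 embryos. Disp1_WT replicate 3 and Myo10_m1J replicate 2 stood apart by decidual and trophoblast transcripts, with 551 and 146 TPM of the decidual prolactin Prl8a2.

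The marks that set imprints are kept after fertilisation by ZFP57, a zinc finger protein that binds the hexamer TGCCGC when it is methylated. RefSeq (build GRCm38.p6) gave promoter windows, running from 250 bases before to 50 bases after a start, for 28 of the 35 genes, and TGCCGC or its reverse complement GCGGCA stood in a window of 11 of these 28 (39.3%), against 3527 of 27025 genes (13.1%) in the whole table. The 11 were Zdbf2, Mest, Nap1l5, Mcts2, Nnat, Zim1, Plagl1, Grb10, Meg3, Igf2 and Snrpn; windows of H19, Cdkn1c, Peg10, Sgce, Rtl1, Peg13 and Impact were not analysed here. Some genes have several windows, and by window the shares were 27.9% of 43 imprinted windows and 11.6% of 32851 in all. Imprinted windows were also richer in CpG, with a median of 13 against 7 per window. Among genes with a window of 10 to 30 CpG the hexamer stood in such a window of 9 of 19 imprinted genes (47.4%) and of 1909 of 9659 of all genes (19.8%). A match is a string of letters and not a shown binding site, and methylation was not measured. The windows of Nnat, Mest and Plagl1, which were higher at E9.5 under all 4 scalings, and of Meg3, the gene with the lowest Myo10_m1J level relative to Myo10_WT, are printed with the hexamer in capitals on either strand.
Nnat promoter, chr2:157559828-157560127, plus strand: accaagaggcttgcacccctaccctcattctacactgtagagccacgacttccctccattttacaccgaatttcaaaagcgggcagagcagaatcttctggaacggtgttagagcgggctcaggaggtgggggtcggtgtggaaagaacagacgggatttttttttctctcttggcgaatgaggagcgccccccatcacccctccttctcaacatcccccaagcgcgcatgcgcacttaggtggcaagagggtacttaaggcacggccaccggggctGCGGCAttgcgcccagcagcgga
Mest promoter, chr6:30737800-30738099, plus strand: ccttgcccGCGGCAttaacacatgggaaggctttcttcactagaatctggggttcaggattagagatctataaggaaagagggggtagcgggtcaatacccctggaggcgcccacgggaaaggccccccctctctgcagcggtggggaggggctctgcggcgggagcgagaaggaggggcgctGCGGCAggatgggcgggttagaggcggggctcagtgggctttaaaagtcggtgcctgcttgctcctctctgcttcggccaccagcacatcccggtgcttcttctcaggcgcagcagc
Plagl1 promoter, chr10:13090582-13090881, plus strand: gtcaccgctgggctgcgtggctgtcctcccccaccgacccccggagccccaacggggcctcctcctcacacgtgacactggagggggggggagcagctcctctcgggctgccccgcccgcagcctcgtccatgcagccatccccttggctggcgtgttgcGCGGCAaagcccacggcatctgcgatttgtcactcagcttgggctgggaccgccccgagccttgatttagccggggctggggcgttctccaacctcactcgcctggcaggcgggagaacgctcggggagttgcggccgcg
Meg3 promoter, chr12:109540746-109541045, plus strand: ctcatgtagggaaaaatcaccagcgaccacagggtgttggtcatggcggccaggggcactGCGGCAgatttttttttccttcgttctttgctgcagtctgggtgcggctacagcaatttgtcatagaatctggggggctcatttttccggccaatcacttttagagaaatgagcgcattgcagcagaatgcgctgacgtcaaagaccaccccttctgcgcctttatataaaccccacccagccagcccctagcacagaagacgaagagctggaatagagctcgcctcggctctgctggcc

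Some of the long noncoding RNAs are also hosts of microRNAs. RefSeq placed 1 hairpin with 2 mature microRNAs within H19 and 3 mature microRNAs within Meg3. It placed 3 hairpins with 6 mature microRNAs within Rian and 10 hairpins with 19 within Mirg. The pair made from H19 and a pair from Mirg that share their seed (bases 2 to 8, in capitals) are printed, since H19 was the most abundant of the 35 transcripts and Mirg was among those most strongly lower at E9.5. Mature microRNAs are not measured by these libraries: of 17 host microRNA genes listed in the table, 16 stood at 0 in every embryo and the highest value of any was 0.558 TPM.
mmu-miR-675-5p, chr7:142577112-142577133, minus strand: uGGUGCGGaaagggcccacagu
mmu-miR-675-3p, chr7:142577078-142577099, minus strand: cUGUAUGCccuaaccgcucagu
mmu-miR-453, chr12:109735669-109735692, plus strand: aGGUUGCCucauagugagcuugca
mmu-miR-496a-5p, chr12:109739132-109739152, plus strand: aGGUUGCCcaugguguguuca

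The question of age was read in the wild types, Disp1_WT at E9.5 against Myo10_WT at E8.5. Of the 34 imprinted genes that passed the filter of 1 TPM in 4 libraries, 21 were higher and 6 lower at E9.5 (limma, Benjamini-Hochberg adjusted p under 0.05), beside 69.4% of all 13397 genes higher and 10.2% lower. The median difference was 0.61 on the log2 scale over the imprinted genes and 0.62 over all genes. Kcnq1ot1 was not tested in TPM and entered the other scalings through its E8.5 embryos alone. Rtl1 passed the filter through its E9.5 embryos alone. Under the other scalings the split was 12 higher and 15 lower (median-of-ratios, beside 36.4% and 36.2% of all genes), 12 and 11 (abundant RNAs left out, beside 42.5% and 27.7%), and 11 and 16 (protein-coding genes, beside 30.1% and 41.6%), with medians over all genes of 0.006, 0.12 and -0.095.

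Under all 4 scalings 11 of the 34 genes were higher at E9.5 and 6 were lower, beside 30.4% higher and 8.49% lower of the 12352 genes tested under all 4. The higher ones were Dlk1, Nnat, Plagl1, Igf2, Gnas, Ndn, Asb4, Peg12, Cdkn1c, Mest and Peg13. The lower ones were Phlda2, Mirg, Rian, Slc22a18, Igf2r and Ube3a. Sorted by the parental copy that textbooks give as the active one, 8 of the 21 paternally expressed genes were higher under all 4 scalings. Over protein-coding genes 8 of the 21 were higher and 8 lower, beside 30.1% and 41.6% of all genes, with a median of -0.042. Kcnq1ot1, 1 of the 21, was not tested in TPM. Under the other 3 scalings it passed the filter through its E8.5 embryos alone. It is counted there among the lower genes (-1.40 to -1.80, limma). Of the 10 maternally expressed genes 2 were higher under all 4, Cdkn1c and Asb4, and 5 were lower. In TPM the paternally expressed genes gave 14 higher and 0 lower of 20 tested, and the maternally expressed genes gave 4 higher and 5 lower of 10. Of all genes 69.4% were higher and 10.2% lower, so the paternal count of higher genes lay near the share of all genes. Rtl1, 1 of the 14, passed the filter through its E9.5 embryos alone. Kcnq1ot1, lower at E9.5 with no overlap, is not among the 20. Gnas, higher, and Ube3a, lower, belong to a set of 4 genes whose active copy depends on transcript or tissue. TPM at E9.5 and E8.5 did not overlap between the wild types for 21 genes higher and 6 lower, beside 66.1% and 7.96% of all genes tested. Kcnq1ot1 is 1 of these 6 and was not among the genes tested in TPM, to which the shares refer.

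**Figure D1:**
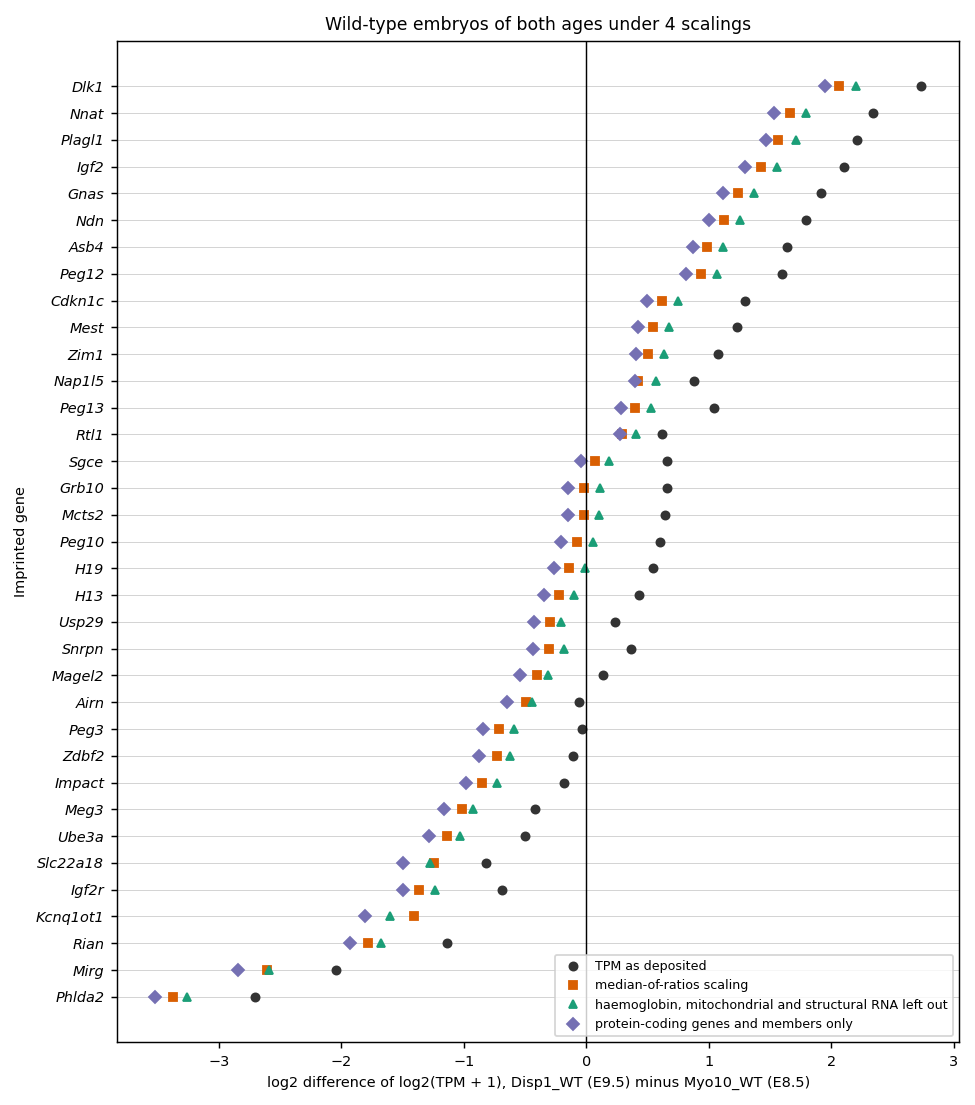
Each row is an imprinted gene, and each mark is the difference of mean log2(TPM + 1) between Disp1_WT embryos at E9.5 and Myo10_WT embryos at E8.5 (4 each) under 1 of 4 scalings. Dlk1 at the top and Phlda2 at the bottom keep their sides under every scaling, while H19, Peg10, Sgce, Grb10, Mcts2, H13, Snrpn, Usp29 and Magel2 cross 0.

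H19 is a long noncoding RNA read from the maternal copy, and it shares its enhancers with Igf2, the fetal growth factor read from the paternal copy. H19 stood at 3654, 3482, 3503 and 3126 TPM in Disp1_CS_INDEL embryos, against 3425, 4260, 3339 and 3214 TPM in Disp1_WT embryos. At E8.5 it stood at 1729, 3247, 1977, 1586 and 1660 TPM in Myo10_m1J embryos, against 3072, 3046, 1981 and 1880 TPM in Myo10_WT embryos. It had the highest TPM of the 35 genes in all 4 groups. Its wild-type difference between the ages was 0.54 (SE 0.17, limma adjusted p = 0.0107) in TPM and turned to -0.14, -0.011 and -0.27 under the other scalings.

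Igf2 stood at 1009, 998, 959 and 943 TPM in Disp1_CS_INDEL embryos, against 1150, 1137, 933 and 990 TPM in Disp1_WT embryos. In the E8.5 embryos it reached 176, 267, 193, 189 and 181 TPM with the m1J allele, against 364, 279, 186 and 185 TPM in Myo10_WT. All E9.5 embryos lay above all E8.5 embryos, and the wild-type means were 1053 ± 108 TPM at E9.5 and 254 ± 85.7 TPM at E8.5 (SD, n = 4 each). The difference was 2.10 (SE 0.19, limma adjusted p = 1.71e-06) and lay between 1.30 and 1.55 under the other scalings. Within the E8.5 embryos the same 3 were highest for H19 and for Igf2, namely Myo10_WT replicates 1 and 2 and Myo10_m1J replicate 2.

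Igf2r, the maternally expressed receptor that takes IGF2 to the lysosome for breakdown, went the other way with age. It stood at 111, 101, 102 and 87.7 TPM in Disp1_CS_INDEL embryos, against 115, 122, 94.6 and 101 TPM in Disp1_WT embryos. At E8.5 it stood at 142, 203, 142, 124 and 146 TPM in Myo10_m1J embryos, against 219, 203, 147 and 141 TPM in Myo10_WT embryos. No E9.5 embryo reached the lowest E8.5 embryo. The wild-type difference was -0.69 (SE 0.14, limma adjusted p = 0.00105), and it ran from -1.24 to -1.49 under the other scalings. Airn, the paternal noncoding RNA that silences the paternal Igf2r, stayed between 0.91 and 4.32 TPM in all embryos and did not pass the test (-0.063, adjusted p = 0.833). Airn lies on the strand opposite to Igf2r, and the TruSeq RNA v2 kit named in the labels does not mark strand. If that kit was used throughout, overlapping reads of Airn and Igf2r cannot be told apart.

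Plagl1 and Grb10 are further regulators of growth: Plagl1 is a paternally expressed zinc finger factor, and Grb10 an adaptor that damps insulin and IGF receptor signalling. Plagl1 had 44.0, 48.0, 39.2 and 41.1 TPM in Disp1_CS_INDEL embryos, against 47.3, 55.9, 41.2 and 42.9 TPM in Disp1_WT embryos. Its E8.5 values were 4.01, 12.8, 8.43, 9.71 and 5.21 TPM in Myo10_m1J embryos, against 18.01, 8.79, 5.57 and 8.19 TPM in Myo10_WT embryos. The wild-type mean at E9.5 was 462% of that at E8.5, a difference of 2.21 (SE 0.26, limma adjusted p = 1.32e-05), with 1.47 to 1.71 under the other scalings. Grb10 had 527, 450, 481 and 446 TPM in Disp1_CS_INDEL embryos, against 479, 519, 439 and 465 TPM in Disp1_WT embryos. Its E8.5 values were 257, 303, 284, 258 and 257 TPM in Myo10_m1J embryos, against 341, 329, 242 and 297 TPM in Myo10_WT embryos. The ages did not overlap for Grb10 in TPM (0.66, adjusted p = 0.000114), but gave -0.019 with median-of-ratios scaling and -0.15 over protein-coding genes.

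**Figure D2:**
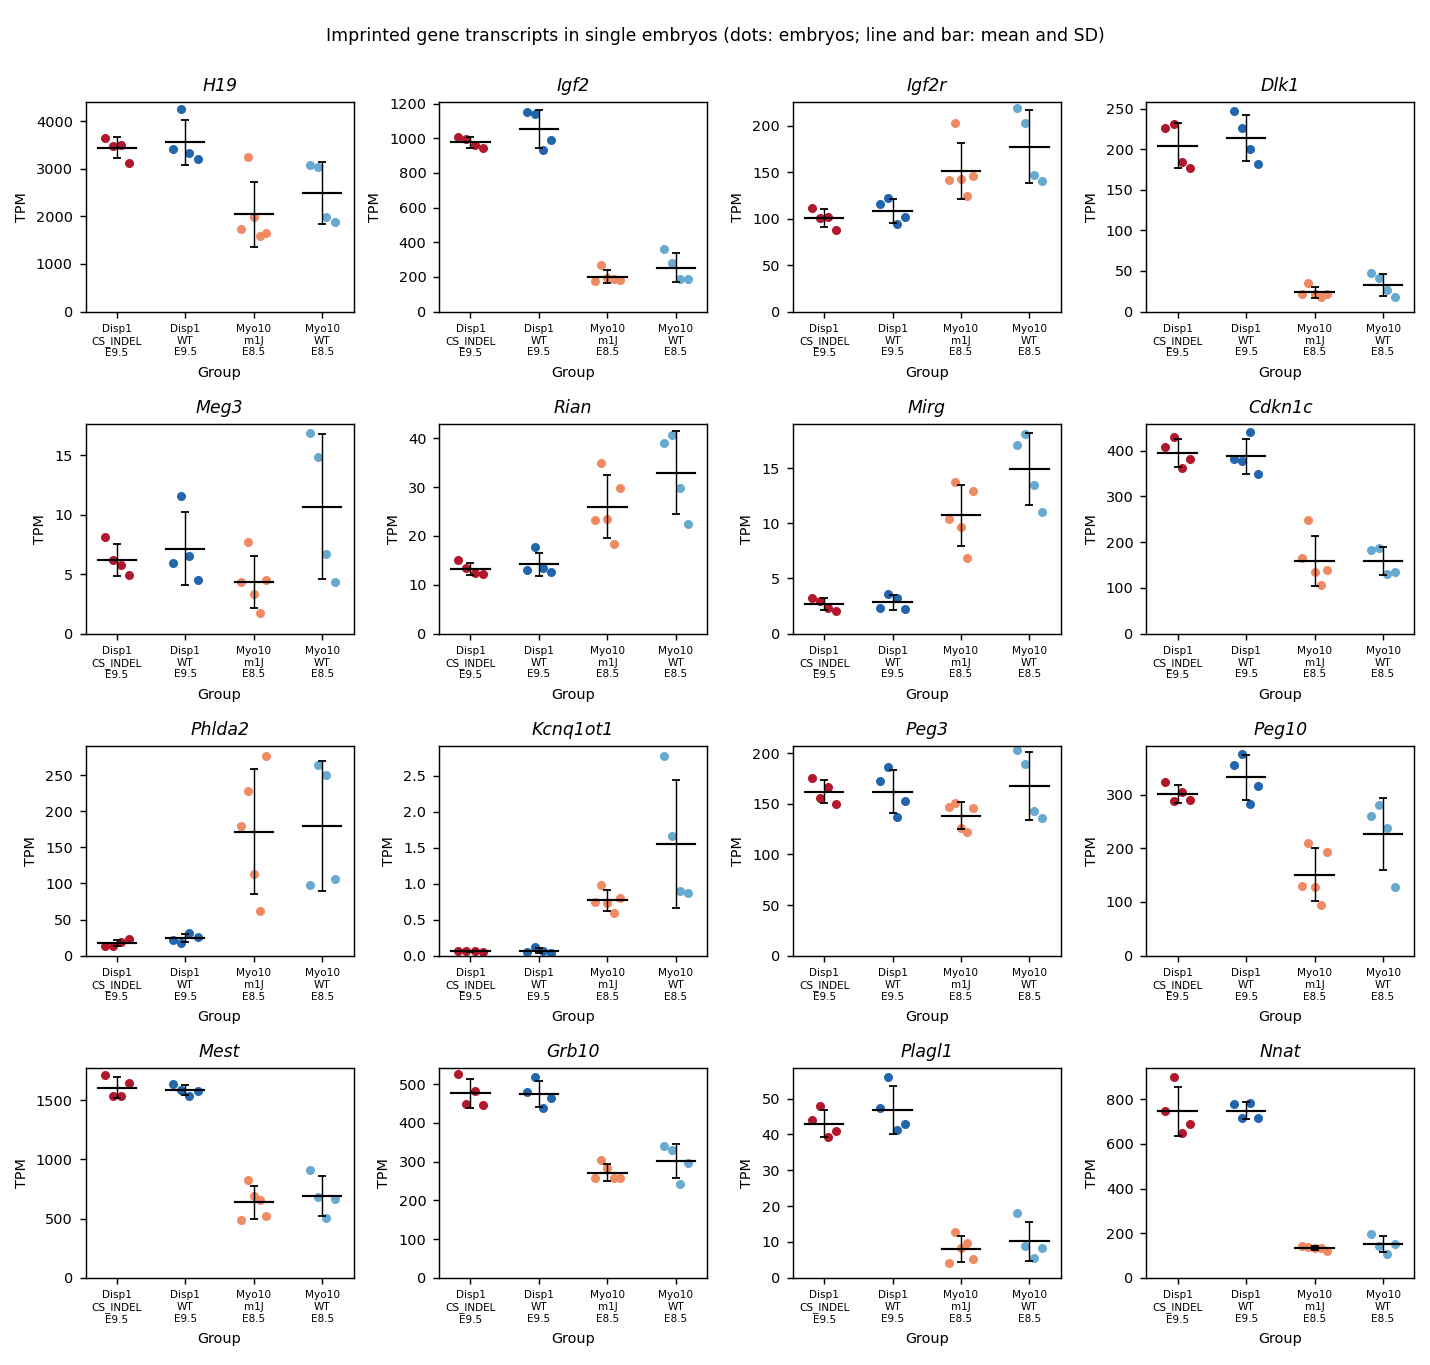
Each panel shows the TPM of an imprinted gene in each embryo (dots) of Disp1_CS_INDEL and Disp1_WT at E9.5 and Myo10_m1J and Myo10_WT at E8.5, with the group mean (line) and SD (bar). Mutant and wild-type dots overlap in every panel, Igf2, Dlk1, Nnat, Plagl1, Mest and Cdkn1c lie higher at E9.5, and Phlda2, Mirg, Rian and Kcnq1ot1 lie lower.

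The Kcnq1ot1 domain holds 3 maternally expressed genes of the list, silenced on the paternal copy by the noncoding RNA Kcnq1ot1. Cdkn1c, an inhibitor of the cell cycle, had 407, 431, 361 and 382 TPM in Disp1_CS_INDEL embryos, against 381, 378, 442 and 350 TPM in Disp1_WT embryos. At E8.5 it had 164, 249, 134, 105 and 139 TPM in Myo10_m1J embryos, against 183, 188, 129 and 135 TPM in Myo10_WT embryos. The E9.5 values all lay above the E8.5 values (wild types 1.30, SE 0.13, limma adjusted p = 3.19e-06, and 0.49 to 0.75 under the other scalings).

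Phlda2, which restrains placental growth, ran in the opposite direction within this domain. It had 13.6, 13.9, 19.3 and 23.2 TPM in Disp1_CS_INDEL embryos, against 22.3, 17.8, 32.0 and 25.9 TPM in Disp1_WT embryos. At E8.5 it had 180, 228, 113, 61.3 and 277 TPM in Myo10_m1J embryos, against 97.8, 264, 250 and 107 TPM in Myo10_WT embryos. The lowest E8.5 embryo was above the highest E9.5 embryo, and within E8.5 the spread was wide, with a coefficient of variation of 50.4% in Myo10_m1J and 49.9% in Myo10_WT. The wild-type difference, -2.71 (SE 0.32, limma adjusted p = 1.28e-05), was the most negative of the genes tested from this list, and it ran from -3.26 to -3.52 under the other scalings. Slc22a18, a membrane transporter, was also lower at E9.5 (1.33 ± 0.76 TPM in Disp1_WT against 3.10 ± 1.15 TPM in Myo10_WT, SD, n = 4 each; -0.82, adjusted p = 0.00988), though its wild-type groups overlapped. Kcnq1ot1 lay between 0.03 and 0.12 TPM in the E9.5 embryos and between 0.59 and 2.78 TPM in the E8.5 embryos, with no overlap. It lies on the strand opposite to Kcnq1, whose group means were 0.83 TPM in Disp1_CS_INDEL, 0.93 TPM in Disp1_WT, 0.17 TPM in Myo10_m1J and 0.29 TPM in Myo10_WT.

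Markers of the yolk sac, which surrounds the embryo, moved with Phlda2 between the ages. The summed TPM of 16 markers of visceral yolk sac endoderm, such as Afp, Ttr and Apoa1, was 52.8 to 84.6 in Disp1_CS_INDEL, 63.0 to 1119 in Disp1_WT, 994 to 2915 in Myo10_m1J and 1138 to 3424 in Myo10_WT. All 16 were at 1 TPM or more in each E8.5 embryo. The 11 trophoblast markers summed to 66.6 to 274 TPM at E9.5 and to 20.7 to 130 TPM at E8.5, with Tpbpa, Gcm1 and Syna near 0 in every embryo. The part of this tissue in the levels of Phlda2, Slc22a18 and the other genes was not tested, and in whole embryos fewer cells of a type and less RNA per cell cannot be told apart.

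The Dlk1 to Meg3 domain gave both directions too. Dlk1, a paternally expressed membrane protein that holds back differentiation, had 226, 231, 184 and 176 TPM in Disp1_CS_INDEL embryos, against 247, 226, 201 and 182 TPM in Disp1_WT embryos. At E8.5 it had 21.6, 35.1, 21.2, 18.1 and 21.8 TPM in Myo10_m1J embryos, against 47.8, 40.9, 26.9 and 17.7 TPM in Myo10_WT embryos. Its wild-type mean was 214 ± 28.5 TPM at E9.5 and 33.3 ± 13.6 TPM at E8.5 (SD, n = 4 each), a difference of 2.73 (SE 0.25, limma adjusted p = 1.75e-06) and the highest of the genes tested from this list. It stayed between 1.95 and 2.20 under the other scalings. Rtl1, a paternally expressed gene derived from a retrotransposon, lay between 1.22 and 1.82 TPM in the E9.5 embryos and between 0.48 and 1.00 TPM in the E8.5 embryos. A maternal antisense transcript covers Rtl1, and unstranded reads of the pair cannot be told apart.

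The maternally expressed noncoding RNAs of the same domain did not follow Dlk1 between the ages. Meg3 had 8.09, 6.17, 5.76 and 4.90 TPM in Disp1_CS_INDEL embryos, against 5.95, 11.6, 6.56 and 4.55 TPM in Disp1_WT embryos. At E8.5 it had 4.31, 7.68, 3.36, 1.77 and 4.53 TPM in Myo10_m1J embryos, against 16.9, 14.8, 6.66 and 4.36 TPM in Myo10_WT embryos. Its wild-type groups overlapped (-0.42, SE 0.37, limma adjusted p = 0.319), and between the mutants of the ages the difference was 0.52 instead. Meg3 was lower at E9.5 in the wild types with median-of-ratios scaling (-1.01, adjusted p = 0.0226) and over protein-coding genes (-1.17, adjusted p = 0.0197). Rian, a host of small nucleolar RNAs and microRNAs, had 14.97, 13.5, 12.3 and 12.3 TPM in Disp1_CS_INDEL embryos, against 13.1, 17.7, 13.4 and 12.6 TPM in Disp1_WT embryos. At E8.5 Rian had 23.2, 34.9, 23.5, 18.3 and 29.9 TPM in Myo10_m1J embryos, against 39.0, 40.6, 29.8 and 22.4 TPM in Myo10_WT embryos. No E9.5 embryo reached the lowest E8.5 embryo for Rian (-1.13, SE 0.18, limma adjusted p = 0.000128, and -1.68 to -1.93 under the other scalings). Mirg, the microRNA host at the far end, averaged 2.84 ± 0.68 TPM in Disp1_WT and 14.9 ± 3.28 TPM in Myo10_WT (SD, n = 4 each; -2.04, SE 0.18, limma adjusted p = 1.13e-06, and -2.59 to -2.85 under the other scalings). Meg3, Rian and Mirg are neighbours often read as parts of a continuous transcript, and the assignment of reads between them is not given in the sources used here.

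Mest and Nnat were among the most abundant of the paternally expressed genes. Mest, a hydrolase-like protein of mesoderm, had 1710, 1536, 1532 and 1647 TPM in Disp1_CS_INDEL embryos, against 1639, 1589, 1539 and 1574 TPM in Disp1_WT embryos. At E8.5 Mest had 489, 828, 692, 654 and 523 TPM in Myo10_m1J embryos, against 911, 683, 501 and 667 TPM in Myo10_WT embryos. The ages did not overlap (wild types 1.23, SE 0.14, limma adjusted p = 1.01e-05, and 0.42 to 0.68 under the other scalings). Nnat, a small membrane protein of the nervous system, had 746, 900, 650 and 690 TPM in Disp1_CS_INDEL embryos, against 780, 715, 785 and 715 TPM in Disp1_WT embryos. At E8.5 Nnat had 142, 139, 135, 132 and 122 TPM in Myo10_m1J embryos, against 195, 145, 108 and 153 TPM in Myo10_WT embryos. Its wild-type mean at E9.5 was 498% of that at E8.5 (2.34, SE 0.14, limma adjusted p = 9.38e-08), and the difference was 1.53 to 1.79 under the other scalings.

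Peg10 and Rtl1 both descend from retrotransposons, and Peg10 is needed for the placenta to form. Peg10 had 322, 289, 304 and 289 TPM in Disp1_CS_INDEL embryos, against 356, 376, 282 and 315 TPM in Disp1_WT embryos. At E8.5 Peg10 had 129, 210, 128, 94.1 and 193 TPM in Myo10_m1J embryos, against 260, 280, 237 and 129 TPM in Myo10_WT embryos. The wild types did not overlap in TPM (0.60, limma adjusted p = 0.0194), but gave -0.076 with median-of-ratios scaling and -0.20 over protein-coding genes. Without Myo10_WT replicate 4 the TPM difference was 0.35. Sgce, which shares a promoter region with Peg10, behaved likewise in TPM (8.36 ± 0.35 in Disp1_WT and 4.97 ± 0.90 in Myo10_WT, SD, n = 4 each) and stood at -0.042 over protein-coding genes. Asb4, a maternally expressed gene further along, kept its direction under all 4 scalings, with 54.1 ± 2.28 TPM in Disp1_WT and 16.9 ± 3.85 TPM in Myo10_WT (SD, n = 4 each; 1.64, adjusted p = 8.02e-07).

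Peg3, a zinc finger protein, is read from the paternal copy together with Usp29, while Zim1 beside them is maternal. Peg3 had 175, 156, 167 and 150 TPM in Disp1_CS_INDEL embryos, against 173, 186, 137 and 153 TPM in Disp1_WT embryos. At E8.5 it had 147, 151, 127, 122 and 146 TPM in Myo10_m1J embryos, against 203, 190, 142 and 136 TPM in Myo10_WT embryos. Its TPM overlapped between the ages (-0.037, limma adjusted p = 0.811), but the gene was lower at E9.5 under each of the other 3 scalings (-0.59 to -0.84). Zim1 was higher at E9.5 in TPM (1.07, adjusted p = 0.00324) and did not pass the test under the other scalings (0.41 to 0.63). Usp29 did not pass in TPM (0.23, adjusted p = 0.157) and was lower with median-of-ratios scaling (-0.30) and over protein-coding genes (-0.43).

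The Snrpn domain, whose loss on the paternal copy in people underlies Prader-Willi syndrome, was split as well. Ndn, a growth suppressor of neurons, averaged 123 ± 3.55 TPM in Disp1_WT and 35.1 ± 5.42 TPM in Myo10_WT (SD, n = 4 each; 1.79, limma adjusted p = 7.42e-08). Peg12 averaged 67.5 ± 2.17 TPM in Disp1_WT and 22.8 ± 8.17 TPM in Myo10_WT (SD, n = 4 each; 1.60, limma adjusted p = 2.48e-05). Both were higher at E9.5 under all 4 scalings. Snrpn, which encodes a protein of the splicing machinery, was higher at E9.5 in TPM (0.37, limma adjusted p = 0.00263) and lower under the other 3 scalings (-0.18 to -0.44, adjusted p = 0.000171 to 0.0384). Ube3a, a ubiquitin ligase that is imprinted in neurons, averaged 13.7 ± 1.31 TPM in Disp1_WT and 19.7 ± 2.16 TPM in Myo10_WT (SD, n = 4 each; -0.50, adjusted p = 0.0012, and -1.03 to -1.29 under the other scalings). Magel2 lay between 1.94 and 6.13 TPM in all embryos and overlapped between the ages in TPM, with -0.40 after median-of-ratios scaling and -0.54 over protein-coding genes, each past the limma threshold. Peg12 resembles Frat1 and Frat2, and Mcts2 is a retrogene copy of Mcts1, so reads of these pairs may be shared.

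The remaining genes lie in other domains. Gnas, which encodes the stimulatory G protein subunit, averaged 359 ± 19.7 TPM in Disp1_WT and 94.9 ± 14.3 TPM in Myo10_WT (SD, n = 4 each; 1.92, SE 0.10, limma adjusted p = 3.97e-08, and 1.11 to 1.37 under the other scalings). Peg13, a noncoding RNA within Trappc9, averaged 23.3 ± 1.38 TPM in Disp1_WT and 10.9 ± 1.35 TPM in Myo10_WT (SD, n = 4 each; 1.04, adjusted p = 3.95e-06, and 0.29 to 0.53 under the other scalings). Mcts2 and its host gene H13 were higher at E9.5 in TPM (0.64 and 0.43) but not under the other scalings, where Mcts2 lay between -0.15 and 0.10 and H13 between -0.35 and -0.097, and over protein-coding genes both were lower (limma adjusted p = 0.0136 and 0.000359). Nap1l5 lay between 0.54 and 3.55 TPM in all embryos and was higher at E9.5 in TPM (0.88, limma adjusted p = 0.00139), with 0.39 to 0.56 under the other scalings, where it did not pass. Impact, a regulator of the translational stress response, and Zdbf2 overlapped between the ages in TPM, and each was lower at E9.5 under the other 3 scalings, with differences of -0.73 to -0.98 for Impact and -0.63 to -0.87 for Zdbf2.

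Between Disp1_CS_INDEL and Disp1_WT embryos at E9.5, 0 of the 34 imprinted genes tested passed (limma, Benjamini-Hochberg adjusted p under 0.05), beside 0.0301% of all 13294 genes. At an unadjusted p under 0.05 there was 1, Phlda2, beside 2.26% of all genes. Its values, given above, overlapped between the groups, and its mean in Disp1_CS_INDEL was 71.4% of that in Disp1_WT (-0.47, SE 0.20, limma adjusted p = 1.00). Snrpn, next in the order of p, differed by -0.14 (SE 0.064). Of the 34, 13 differences were positive and 21 negative, where 56.3% of all genes were positive, with a median of -0.039 beside 0.0097 over all genes. This balance turned without Disp1_CS_INDEL replicate 4 (19 positive and 15 negative, median 0.0042) and without Disp1_WT replicate 2 (20 and 14, median 0.016). No imprinted gene had groups that did not overlap, beside 0.895% of all genes higher and 0.654% lower.

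Extra-embryonic transcripts were high in 1 of the Disp1_WT embryos. Disp1_WT replicate 3 held 551 TPM of Prl8a2, a decidual prolactin, 113 TPM of the trophoblast prolactin Prl3d1 and a yolk sac marker sum of 1119 TPM, against sums of 63.0 to 106 TPM in the other Disp1_WT embryos. Its sum over 6 decidual markers was 615 TPM, against 64.9 to 85.6 TPM in those embryos. Prl8a2 alone made up 551 TPM of that sum. In every Disp1_WT embryo 4 of the 6 decidual markers were at 1 TPM or more. Disp1_WT replicate 3 also had the highest E9.5 values of Phlda2 (32.0 TPM), Slc22a18 (2.40 TPM) and Cdkn1c (442 TPM). For Igf2, Peg3, Peg10, Grb10, Usp29 and Peg12 it had the lowest E9.5 values. Of the 35 imprinted genes, 16 lay above the mean of all E9.5 embryos in this embryo. Without this embryo the Phlda2 difference was -0.33, and no imprinted gene passed the limma test with or without it. The part of that tissue in the levels of any of these genes was not tested further.

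Between Myo10_m1J and Myo10_WT embryos at E8.5, 0 of 33 imprinted genes tested passed, beside 0.00796% of all 12560 genes (limma, Benjamini-Hochberg). At an unadjusted p under 0.05 there were 3, beside 6.8% of all genes. Meg3 averaged 4.33 ± 2.17 TPM in Myo10_m1J (SD, n = 5) and 10.7 ± 6.11 TPM in Myo10_WT (SD, n = 4), a difference of -1.06 (SE 0.37). Peg10 differed by -0.58 (SE 0.25) and Mirg by -0.45 (SE 0.19), and the limma adjusted p was 0.473 for each of the 3. Their groups overlapped, as did those of every other imprinted gene, beside 0.0318% of all genes with groups apart and higher and 0.963% lower. All 33 differences were negative (28 to 33 with single embryos left out), where 6% of all genes were positive, and the median was -0.21 beside -0.16 over all genes. After median-of-ratios scaling 13 were positive and 20 negative, with medians of -0.022 for the imprinted genes and 0.015 for all genes.

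The 4 Myo10_WT embryos were not alike for these 3 genes. Myo10_WT replicates 1 and 2 had the highest Meg3 of all 17 embryos, while Myo10_WT replicates 3 and 4 lay within the Meg3 range of Myo10_m1J. Without replicate 1 the Meg3 difference was -0.80, and without replicate 2 it was -0.86. Peg10 was lowest of the wild types in Myo10_WT replicate 4 (129 TPM), and without it the difference was -0.83.

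Whether the mutants differed in their effects was tested as a difference of differences over all 17 embryos, a comparison in which the mutated gene and the age cannot be told apart. No imprinted gene of 34 passed, and 0 had an unadjusted p under 0.05 in limma, beside 0.0216% and 4.95% of all 13910 genes. The smallest p were those of Usp29 (0.34, SE 0.17), Peg13 (0.26, SE 0.14) and Meg3 (0.94, SE 0.50), each with a limma adjusted p of 0.586. The median over the imprinted genes was 0.14, beside 0.16 over all genes.

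**Figure D3:**
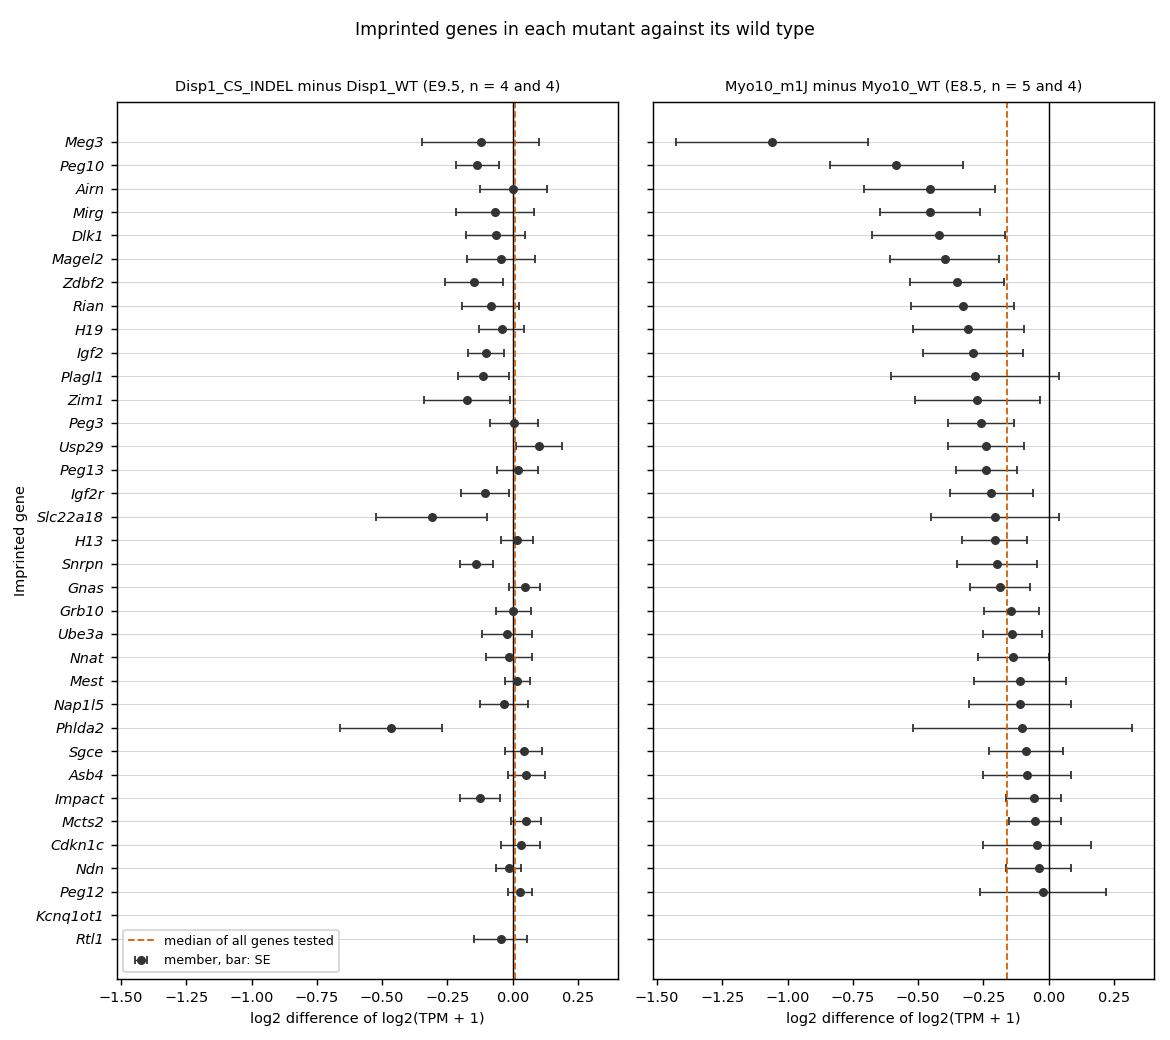
Dots give the difference of mean log2(TPM + 1) of each imprinted gene, with its SE as bar, for Disp1_CS_INDEL minus Disp1_WT (left) and Myo10_m1J minus Myo10_WT (right), and the dashed line is the median of all genes tested. Phlda2 has the lowest value on the left at -0.47 and Meg3 on the right at -1.06, and the right-hand dots sit around the dashed line at -0.16 rather than around 0.

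The level of most imprinted genes moved one way in some embryos, as did that of all genes. At E8.5, 33 of the 35 genes lay above the mean of all E8.5 embryos in Myo10_WT replicate 1, 33 in Myo10_WT replicate 2 and 29 in Myo10_m1J replicate 2, while the other 6 embryos had 4 to 14. The median deviation of the imprinted genes in these 3 embryos was 0.44, 0.29 and 0.20 on the log2 scale, beside 0.23, 0.21 and 0.053 for all genes. The same 3 embryos had the highest Afp of the E8.5 embryos, at 241, 173 and 216 TPM. Their sums over the 16 yolk sac markers were 3424, 3279 and 2915 TPM. Myo10_WT replicate 3 came close with a sum of 2804 TPM, and it had 9 of the 35 genes above the mean. Myo10_m1J replicate 2 also held 146 TPM of Prl8a2 and 42.7 TPM of Prl3d1, with a trophoblast marker sum of 130 TPM, against 20.9 to 72.3 TPM in the other Myo10_m1J embryos. Its decidual marker sum was 174 TPM, most of it Prl8a2, against 14.6 to 30.6 TPM. The part of extra-embryonic tissue in these levels was not tested. At E9.5 the counts above the mean lay between 28 in Disp1_CS_INDEL replicate 1 and 7 in Disp1_WT replicate 4, with median deviations of 0.061 and -0.051 in these embryos, beside 0.076 and -0.053 for all genes.

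**Figure D4:**
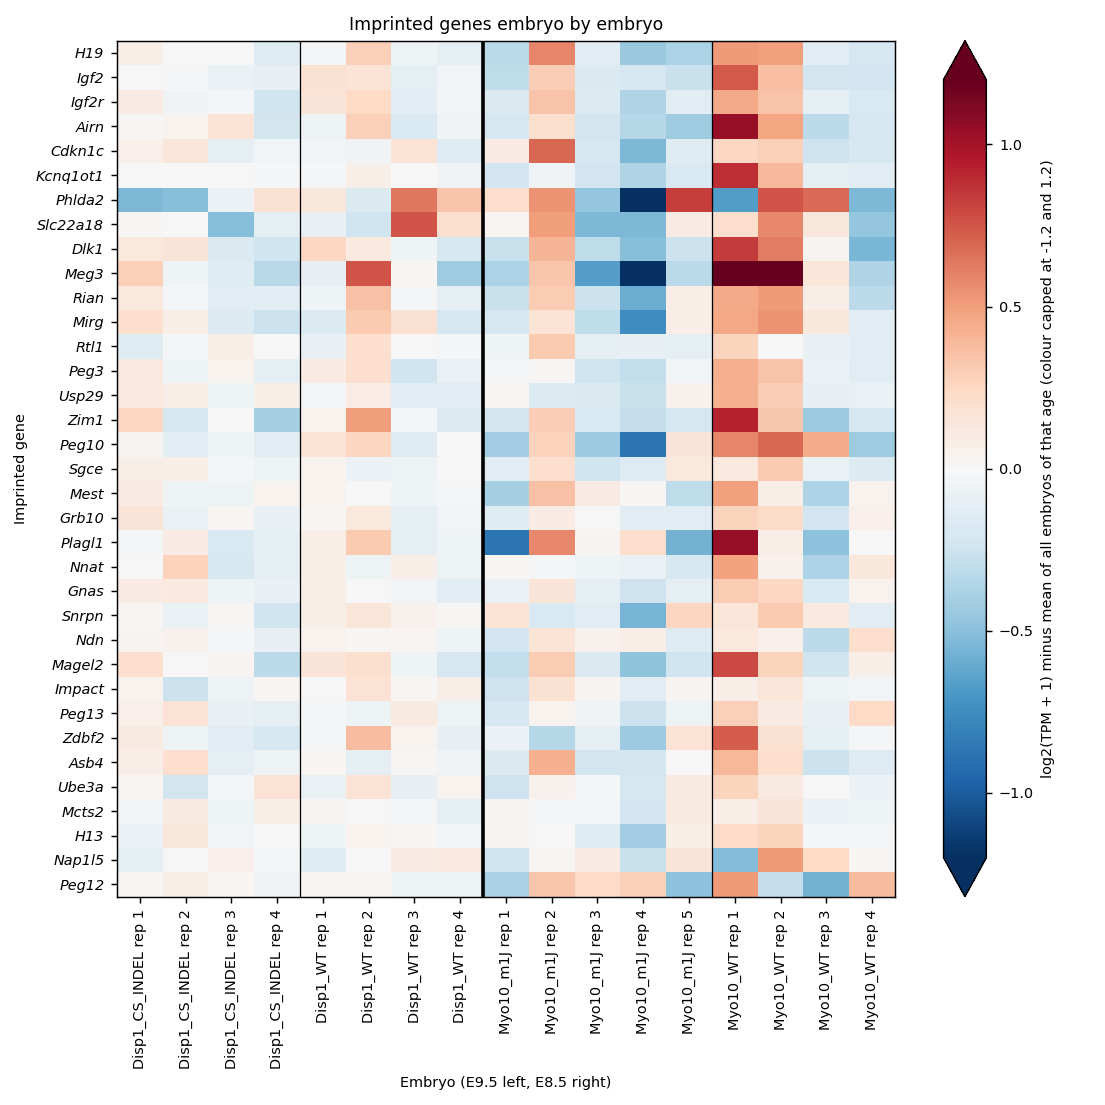
Rows are the 35 imprinted genes and columns the 17 embryos, with Disp1_CS_INDEL, Disp1_WT, Myo10_m1J and Myo10_WT from left to right; colour is log2(TPM + 1) minus the mean of all embryos of that age. Myo10_WT replicates 1 and 2 and Myo10_m1J replicate 2 are red for 33, 33 and 29 of the 35 genes, and Phlda2 departs from the rest in several columns.

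Genes of the same domain were compared over the embryos of each age, for 9 pairs and thus 18 correlations of log2(TPM + 1), with exact permutation tests adjusted over all 18. Meg3 and Rian, on the same strand and copy, went together at E8.5 (n = 9, Pearson r = 0.94, exact permutation p = 0.00011, adjusted p = 0.00141; Spearman rho = 0.90, exact p = 0.00203, adjusted p = 0.0183). Without the 2 embryos farthest from the median of Meg3 r was 0.91. At E9.5 the same pair gave n = 8 and r = 0.97 (exact permutation p = 0.00102, adjusted p = 0.00458; rho = 0.90, exact p = 0.00456, adjusted p = 0.0274), with r = 0.75 without the 2 farthest embryos, and after median-of-ratios scaling r without them was 0.41.

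Dlk1 and Meg3, read from opposite parental copies, also went together at E8.5 (n = 9, r = 0.94, exact permutation p = 0.000157, adjusted p = 0.00141; rho = 0.90, exact p = 0.00203, adjusted p = 0.0183), with r = 0.81 without Myo10_WT replicates 1 and 2. After median-of-ratios scaling rho did not pass (0.73, exact permutation adjusted p = 0.0934), and r was 0.60 without the 2 embryos and 0.33 without the 3 that held the most imprinted genes above the mean. Peg3 and Usp29 gave r = 0.95 at E8.5 (n = 9, exact permutation p = 0.000692, adjusted p = 0.00415; rho = 0.80, exact p = 0.0138, adjusted p = 0.0498), with r = 0.69 without the same embryos. Peg10 and Sgce gave r = 0.81 at E8.5 (n = 9, exact permutation p = 0.0142, adjusted p = 0.0364; rho = 0.82, exact p = 0.0108, adjusted p = 0.0485), and this fell to r = 0.28 after median-of-ratios scaling (adjusted p = 0.624). At E9.5 these 3 pairs did not pass (adjusted p = 0.209, 0.209 and 0.986).

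For H19 with Igf2 and for Igf2r with Airn the E8.5 embryos fell into the 3 named above and 6 lower ones, so no r over all 9 is given. Over the 6 lower embryos r was 0.35 for H19 with Igf2 and 0.047 for Igf2r with Airn. After median-of-ratios scaling it was 0.67 and 0.43, and none of these values was tested. Over all 9 embryos in TPM rho was 0.73 and 0.60 (exact permutation adjusted p = 0.0934 and 0.174). After median-of-ratios scaling rho over all 9 was 0.83 and 0.85 (exact permutation adjusted p = 0.0372 and 0.0364). At E9.5 neither pair passed (n = 8, r = 0.63 and rho = 0.57, exact permutation adjusted p = 0.186 and 0.227 for H19 with Igf2; r = 0.72 and rho = 0.64, adjusted p = 0.0935 and 0.174 for Igf2r with Airn). Cdkn1c went with neither Phlda2 (E8.5 r = 0.47 and rho = 0.35, exact permutation adjusted p = 0.262 and 0.430) nor Kcnq1ot1 (E8.5 r = 0.52 and rho = 0.70, exact permutation adjusted p = 0.222 and 0.111) beyond the threshold, nor did Snrpn with Ndn (E8.5 r = -0.46 and rho = -0.42, exact permutation adjusted p = 0.263 and 0.373). The points share their library scaling, and levels of all genes shifted between E8.5 embryos as given above.

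**Figure D5:**
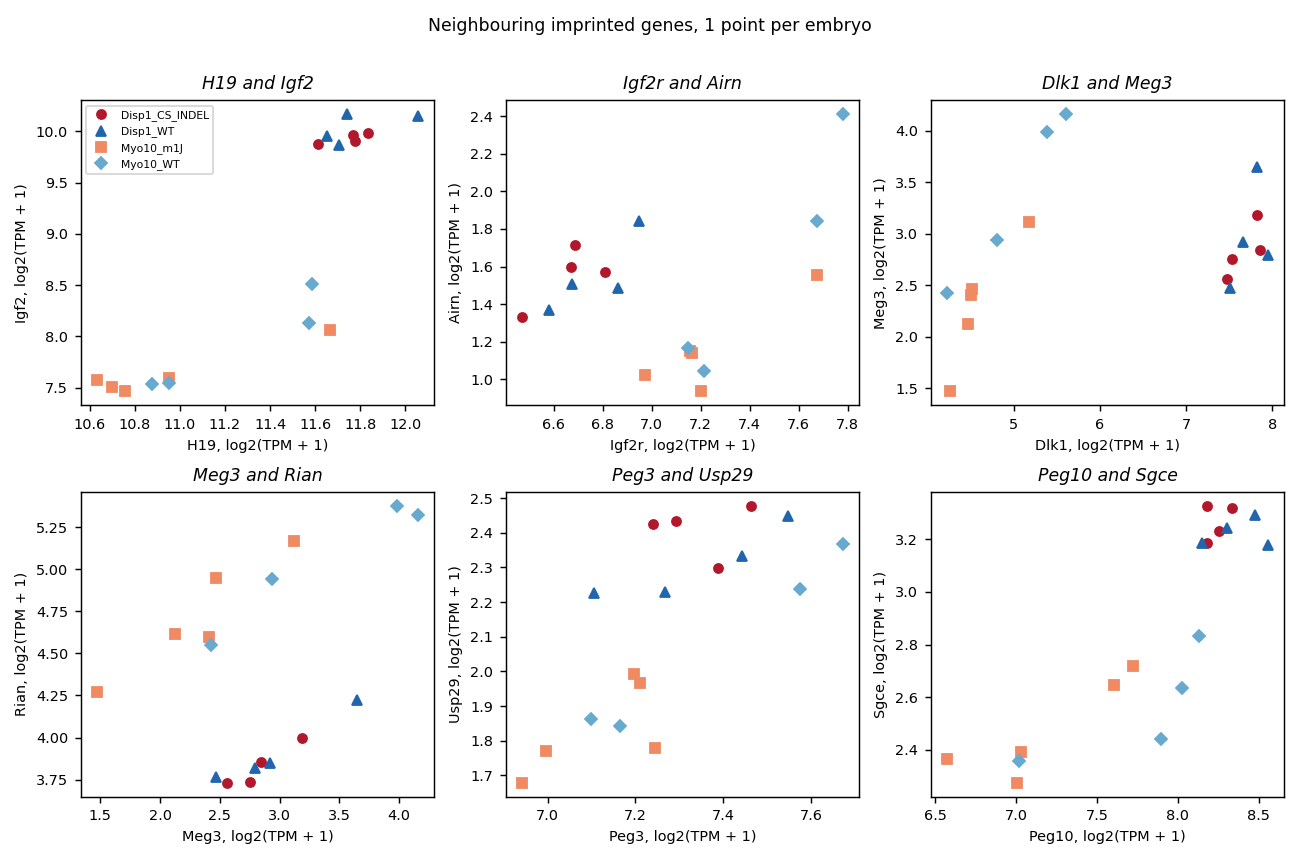
Each point is an embryo, placed by log2(TPM + 1) of 2 genes of the same imprinted domain, with symbols for Disp1_CS_INDEL, Disp1_WT, Myo10_m1J and Myo10_WT. The ages form separate clouds in each panel but that of Peg3 and Usp29, genes that both overlapped between the ages. Meg3 and Rian line up within both clouds (r = 0.97 at E9.5 and 0.94 at E8.5), while Peg10 and Sgce line up at E8.5 alone in TPM (r = 0.81).

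Other genes of imprinting and of IGF signalling gave the surroundings of these results. Of 48 further imprinted genes listed, 47 were in the table, and 0 of those tested passed in either mutant by limma, with 2 at an unadjusted p under 0.05 in Disp1_CS_INDEL (Klf14 and Dcn, of 32) and 1 in Myo10_m1J (Ago2, of 30). Between the wild types 22 were higher at E9.5 and 4 lower of 34 tested in TPM, and 15 and 16 of 35 over protein-coding genes, where the shares of all genes are those given above for each scaling. Dhcr7 (2.63), Axl (1.68) and Dcn (1.52) had the highest differences, and Sfmbt2 (-1.29, with means of 1.06 TPM in Disp1_WT and 4.17 TPM in Myo10_WT), Jade1 (-0.64) and Klf14 (-0.54) the lowest, all limma calls under each scaling. Dcn passed the filter through its E9.5 embryos alone.

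Of 24 genes that set or keep imprints, 21 were tested, and 12 were higher and 4 lower at E9.5 in TPM, against 1 higher and 16 lower over protein-coding genes. All genes gave 69.4% higher and 10.2% lower in TPM, and 30.1% and 41.6% over protein-coding genes. Dnmt3b, a methyltransferase that lays down new DNA methylation, averaged 38.8 ± 2.02 TPM in Disp1_WT and 112 ± 17.1 TPM in Myo10_WT (SD, n = 4 each; -1.50) and was lower under all 4 scalings. Tet1, which oxidises methylated cytosine (-1.07), and Arid4b (-0.56) were lower under all 4 as well. Zfp57 (1.10), Dnmt3a (1.03) and Ezh2 (0.93) had the highest differences in TPM, but over protein-coding genes Zfp57 (0.38, limma adjusted p = 0.0671) and Ezh2 (0.14, adjusted p = 0.167) did not pass. In the mutants 0 of the 21 passed, with 0 at an unadjusted limma p under 0.05 in Disp1_CS_INDEL and 1, Tet3, in Myo10_m1J.

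Of 20 genes of IGF signalling, 19 were tested between the wild types, with 10 higher and 3 lower at E9.5 in TPM and 8 higher and 8 lower of 20 over protein-coding genes. The shares of all genes were 69.4% and 10.2% in TPM, and 30.1% and 41.6% over protein-coding genes. The IGF binding proteins Igfbp5 (375 ± 25.6 TPM in Disp1_WT against 68.0 ± 36.1 TPM in Myo10_WT, SD, n = 4 each; 2.58) and Igfbp4 (1.73) and the kinase Akt1 (1.77) had the highest differences and were higher under all 4 scalings. Igf2bp1 (-0.57), an RNA-binding protein named for its binding of Igf2 mRNA, was lower under all 4, and Irs4 (-0.48, limma adjusted p = 0.295) did not pass in TPM. In the mutants 0 of 18 passed by limma, with Igf2bp1 at an unadjusted p under 0.05 in Disp1_CS_INDEL (-0.19) and Igf1r, Irs1, Irs2 and Igf2bp1 in Myo10_m1J (-0.35, -0.35, -0.36 and -0.27).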

How the data were processed

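RNA of 17 single whole embryos was sequenced, per the labels' protocols with TruSeq RNA v2 libraries. The authors deposited TPM for 41709 gene symbols, with each library summing to 1000000. GRCm39 (mm39) is the build in the submitters' processing notes, and for the aligner, the quantifier and the annotation the sources used here give nothing. Read depth cannot be had from TPM, so it is unknown and no counting intervals or detection limits are given. P-values measure the spread between embryos.

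Groups came from the sample titles. TPM was turned into log2(TPM + 1). limma 3.58.1 (R 4.3.3) tested the genes that had 1 TPM or more in 4 or more of the libraries compared (moderated test with a mean-variance trend, Benjamini-Hochberg adjustment over all genes tested, threshold 0.05). The Disp1 and Myo10 experiments had a fit each. All 17 libraries entered the fit for the contrast between mutant effects, and the 8 wild types that for age; these also serve the mutant comparisons. Correlations used exact two-sided permutation tests. The fits were tested on simulated data. RefSeq windows and microRNAs are on GRCm38.p6, and no other coordinates are printed because the builds differ.

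Values in every embryo are given for 14 genes fixed by name; otherwise the rule named, between the ages, the 6 genes with the largest fold in each direction, the 3 with the smallest p in the contrast between mutant effects, and the 3 largest changes each way of each further list. A gene of these lists that the rule named is not reported here. The other imprinted genes are given by mean, range or fold. Genes with an unadjusted p under 0.05, and the marker genes and embryos named beside them, were named after their values were seen. The imprinted genes, lists and tests were chosen with earlier results of these data known. The scaling over protein-coding genes, and the correlations over 6 embryos, were chosen after seeing the data. Alternatives are given in the closing section. No sample was left out.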

Additional observations from a re-analysis of the deposited data

Results flagged for a closer look

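In 134 tests of an embryo standing apart from its group, 7 values did so; chance alone gives this in about 1 of 20 groups. In Myo10_m1J replicate 2, the embryo with decidual and trophoblast transcripts, 6 genes stood above the other Myo10_m1J embryos. H19 was at 3247 TPM, against 1586 to 1977 TPM in the other 4. Igf2 was at 267 TPM, against 176 to 193 TPM. Igf2r was at 203.3 TPM, against 124 to 146 TPM. Dlk1 was at 35.1 TPM, against 18.1 to 21.8 TPM. Zim1 was at 4.59 TPM, against 2.75 to 3.02 TPM. Asb4 was at 21.9 TPM, against 13.6 to 16.0 TPM. In Disp1_WT replicate 2, Rian was at 17.7 TPM, against 12.6 to 13.4 TPM in the other 3.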

How the results depend on the processing

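No imprinted gene passed in either mutant or in the difference of the effects under any alternative run, each library left out included. Leaving out single libraries gave medians of -0.058 to 0.016 (Disp1), -0.30 to -0.14 (Myo10) and 0.068 to 0.27 (difference of the effects). Between the ages it gave 20 to 22 genes higher, 6 to 7 lower and a median of 0.50 to 0.67. Under median-of-ratios scaling, abundant RNAs left out, and protein-coding genes in turn, 12, 12 and 11 genes were higher, 15, 11 and 16 lower, and the median was -0.076, 0.053 and -0.20. In the same order H19 turned to -0.14, -0.011 and -0.27, Snrpn to -0.31, -0.18 and -0.44, and H13 to -0.22, -0.097 and -0.35. With median-of-ratios scaling and protein-coding genes Peg10 turned to -0.076 and -0.20, Grb10 to -0.019 and -0.15, and Mcts2 to -0.024 and -0.15, and Sgce turned to -0.042 over protein-coding genes. Meg3 turned to 0.051 over all 17 embryos and to 0.52 in the mutants alone. The shift of the all-gene median with scaling is given in the report; other causes were not tested. Of 28 imprinted genes followed between the ages, 17 kept direction and call in every setting and 8 reversed in at least 1. At E9.5 r turned to 0.26 (Cdkn1c with Phlda2), -0.13 (Cdkn1c with Kcnq1ot1) and -0.32 (Peg10 with Sgce) after median-of-ratios scaling, and to -0.12 (Snrpn with Ndn) without 2 embryos; Peg10 with Sgce at E8.5 gave 0.28 after that scaling. None of the 4 at E9.5 had passed.

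Replicate numbers recur across groups. For same-numbered embryos the r of their deviations was 0.0915, 0.0767, -0.241 and 0.348 in Disp1. It was -0.0543, 0.154, -0.287 and 0.463 in Myo10 and -0.0737, 0.0427, 0.0566 and 0.21 between the ages. Number 4 alone correlated best with its own number, and did so in each comparison. With the replicate number as a block 0 imprinted genes passed in Disp1, Myo10 or the difference of the effects, and 21 were higher and 7 lower between the ages; over all genes the Myo10 calls were 1 higher and 45 lower, against 0 and 1 without the block.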
